A study of Mus musculus with 6 samples.

Results

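Kallikrein related peptidases are secreted serine proteases encoded side by side in 1 cluster, and 10 of these genes, *Klk1*, *Klk5*, *Klk6*, *Klk7*, *Klk8*, *Klk9*, *Klk10*, *Klk11*, *Klk13* and *Klk14*, were followed in mouse breast tumors, out of 18460 genes with a read in at least 1 tumor. The members were chosen by expression in these tumors, because the log2 fold change of *Klk10* between test and control was the highest of all 13706 genes that entered the test. Levels of the members in test and control tumors are therefore given as a description and without a test.

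Total RNA was sequenced from 6 breast tumors of Balb/c mice, each from a separate mouse. The 3 test tumors came from K14-TSLPtg;PyMTtg;Rag1KO mice and the 3 control tumors from PyMTtg;Rag1KO mice, and all of these mice received CD4+ T cells by injection at 4 wk of age and gave their tumors at 18 to 20 wk. In both groups the PyMT oncogene was driven by the MMTV promoter, which acts in mammary epithelium, and the loss of Rag1 left the hosts without T and B cells of their own, so that the transferred cells were the T cells available. The groups differed in the TSLP transgene, which the K14 promoter drives in keratinocytes and other basal epithelial cells. The design asks how tumors exposed to CD4+ T cells differ when the mice overexpress TSLP, a cytokine of barrier epithelia.

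Values of a group are listed for replicates 1, 2 and 3 in turn. Expected counts, the estimated number of reads from each gene, summed to 9249064, 8908390 and 9090055 in the control tumors and to 8373390, 8571403 and 9449565 in the test tumors. A floor of 3 counts was taken as the smallest level that this depth shows, and it covers counting error only. For *Klk10* the floor came to between 0.237 and 0.267 FPKM, a unit that scales fragments by transcript length and sequencing depth. *Tslp* had 12, 7 and 2 counts in the test tumors and 2, 2 and 3 counts in the control tumors, so that test replicate 3 was at the level of the controls in this tissue. *Rag1* had between 4 and 27 counts in each tumor, and whether these reads lie outside the deleted part of the gene is not known from gene totals, so they do not check the deletion.

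The tissue label was compared with luminal epithelial markers, of which 14 of 14 had more than 3 counts in each of the 6 tumors. *Krt18*, a keratin of simple epithelia, was at 395, 913 and 335 FPKM in the control tumors and at 1058, 997 and 1206 FPKM in the test tumors. No defining luminal marker was at 0 in any tumor. Control replicate 2 stood apart from its group, with correlations of log2 expression across genes of 0.874 and 0.908 with control replicates 1 and 3 but 0.921, 0.927 and 0.935 with the test tumors. Genes are not independent replicates, so these coefficients carry no p, and medians over lists are given with and without it, as are log2 fold changes that it alters by more than 1.5 times on the log2 or the linear scale.

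Kallikreins are made as inactive precursors that are activated by removal of a short propeptide, in part by one another. In skin they form a cascade, with Klk5, Klk7 and Klk14 as the central enzymes, that loosens the outer layer by cutting adhesion proteins and that is held back by the inhibitor Spink5. In other glands and in the mammary epithelium several family members are secreted at the luminal side, and KLK10 was first described in human breast epithelial cells as a transcript lost in many breast cancer lines.

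On chromosome 7 of GRCm38, *Klk14* (NCBI Gene 317653, 43680880 to 43695536) came first of the members, followed by *Klk13*, *Klk11*, *Klk10*, *Klk9*, *Klk8*, *Klk7*, *Klk6* and *Klk5*. From the start of *Klk14* to the end of *Klk5* these genes spanned 170.3 kb, all on the forward strand. *Klk1* lay a further 374.2 kb away, behind the block of *Klk1b* genes. All 10 members had at least 1 count in at least 1 tumor, but only 3 of them, *Klk6*, *Klk10* and *Klk14*, passed the filter on low counts. A member that is high in 1 group passes that filter more easily, and the other 7 members are given as counts.

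*Klk10* (NCBI Gene 69540, chromosome 7, 43781054 to 43785410) encodes a secreted peptidase of epithelia whose human counterpart has weak protease activity compared with its relatives. Its expected counts were 3, 21 and 4 in the control tumors and 364, 2483 and 4335 in the test tumors. In FPKM the same tumors were at 0.24, 1.76 and 0.33 and at 32.4, 215 and 342. Every test tumor lay above every control tumor, the lowest test tumor was test replicate 1, and control replicate 1 was at the floor of 3 counts. Mean *Klk10* levels were 196.3 ± 155.5 FPKM in test tumors and 0.777 ± 0.853 FPKM in control tumors (SD, n = 3 each). The fitted log2 fold change was 8.02 (standard error 1.17), and the next highest of any tested gene was 7.35, for *Hhipl2*. For *Klk10* it was 9.38 without control replicate 2 and 7.39 without test replicate 3. When each tumor was left out in turn, *Klk10* stood between rank 1 and rank 6 by log2 fold change, and without control replicate 2 it was second to *Myl1*, a myosin light chain of muscle, at 9.98. The tumors were sequenced in bulk. A difference in the number of cells of a type and one in RNA per cell therefore cannot be told apart for this or any other gene described here. Among all genes ordered by FPKM within a tumor, *Klk10* stood at rank 201 in test replicate 3, 391 in test replicate 2 and 2665 in test replicate 1. In the control tumors its rank was 14437, 11382 and 14236 for replicates 1, 2 and 3.

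*Klk6* (NCBI Gene 19144, chromosome 7, 43824438 to 43832027), a trypsin-like protease best known from myelin turnover in the central nervous system, lay 43.4 kb downstream of *Klk10*. Its counts were 0, 17 and 1 in the control tumors and 14, 100 and 303 in the test tumors. The groups overlapped, because control replicate 2 was above test replicate 1. In FPKM the values were 0, 1.42 and 0.09 in the control and 1.32, 9.32 and 24.0 in the test tumors, with means of 0.503 ± 0.795 and 11.55 ± 11.51 (SD, n = 3 each). Its log2 fold change was 4.52 (standard error 1.44) with all tumors, 7.79 without control replicate 2 and 3.38 without test replicate 3. The order of the tumors matched that of *Klk10* within the test group and in the highest control tumor. Per length, *Klk10* exceeded *Klk6* by 24.55, 23.05 and 14.23 times in the test tumors, and by 1.24 times in control replicate 2, where *Klk6* was well above the floor.

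The promoters shown are those of *Klk10* and *Klk6*, tested members that were highest in test replicates 3 and 2. Shown with them are the promoter of *Klk14*, whose groups overlapped widely, and the downstream promoter of *Klk11*, the gene next to *Klk10*. Each runs from 250 bases before to 50 bases after an annotated start. All 10 members had at least 1 promoter in RefSeq (GRCm38.p6), 12 promoters in all since *Klk6* and *Klk11* have 2 each. The sequences run 5′ to 3′ on the forward strand. Capitals mark AGAACA, the half-site bound by the glucocorticoid and progesterone receptors, and TTCNNNGAA, the STAT site, each on either strand.
*Klk10* promoter, chr7:43780804-43781103: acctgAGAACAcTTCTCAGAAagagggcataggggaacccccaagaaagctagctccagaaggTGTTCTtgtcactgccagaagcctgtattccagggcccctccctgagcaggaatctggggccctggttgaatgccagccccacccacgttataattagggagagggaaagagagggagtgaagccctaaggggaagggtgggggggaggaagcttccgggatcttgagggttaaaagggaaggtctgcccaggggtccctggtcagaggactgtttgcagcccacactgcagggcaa
*Klk6* promoter 1, chr7:43824294-43824593: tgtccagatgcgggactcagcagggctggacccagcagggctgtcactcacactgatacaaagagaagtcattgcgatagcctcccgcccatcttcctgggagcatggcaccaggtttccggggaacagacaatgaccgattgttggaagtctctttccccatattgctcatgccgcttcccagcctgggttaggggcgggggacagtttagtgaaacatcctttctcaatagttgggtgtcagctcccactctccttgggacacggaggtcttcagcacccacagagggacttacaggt
*Klk6* promoter 2, chr7:43825200-43825499: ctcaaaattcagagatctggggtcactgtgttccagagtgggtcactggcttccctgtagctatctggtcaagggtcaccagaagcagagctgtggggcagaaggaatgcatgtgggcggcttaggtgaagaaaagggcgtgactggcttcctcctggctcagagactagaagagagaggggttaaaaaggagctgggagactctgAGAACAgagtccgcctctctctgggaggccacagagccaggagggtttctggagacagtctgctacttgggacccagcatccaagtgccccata
*Klk14* promoter, chr7:43690168-43690467: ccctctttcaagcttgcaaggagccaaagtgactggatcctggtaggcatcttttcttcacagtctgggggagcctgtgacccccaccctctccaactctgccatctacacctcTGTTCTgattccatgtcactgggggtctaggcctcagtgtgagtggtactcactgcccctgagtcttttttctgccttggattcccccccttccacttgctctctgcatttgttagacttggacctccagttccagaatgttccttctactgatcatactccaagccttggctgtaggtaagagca
*Klk11* promoter 2, chr7:43776079-43776378: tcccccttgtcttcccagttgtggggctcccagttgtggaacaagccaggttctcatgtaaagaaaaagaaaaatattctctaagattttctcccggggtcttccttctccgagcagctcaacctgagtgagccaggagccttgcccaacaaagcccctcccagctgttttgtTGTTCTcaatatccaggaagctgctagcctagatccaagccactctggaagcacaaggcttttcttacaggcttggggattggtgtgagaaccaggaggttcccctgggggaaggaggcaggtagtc
The *Klk10* promoter held AGAACA or its reverse complement starting 245 and 187 bases before the start site, and a STAT site starting 238 bases before it, with no overlap between these matches. In the downstream promoter of *Klk6* a half-site began 44 bases before the start, in that of *Klk11* 77 bases before it, and in the promoter of *Klk14* 136 bases before it. The upstream promoters of *Klk6* and *Klk11* had none of the motifs searched. AGAACA was found in 4 of the 12 promoters of the members and in 19.0% of all 32817 promoters of the same length. All 4 are among the promoters shown, and the promoters left out, such as those of *Klk8* and *Klk9*, lack AGAACA. The STAT site was found in 1 of the 12 and in 8.29% of all promoters. For TATAAA the shares were 0 of 12 and 13.6%, for TGANTCA, the AP-1 site, 0 of 12 and 7.81%, and for AGATAA, the GATA site, 2 of 12 and 11.2%. A match to these letters describes the sequence and shows no binding, and a missing match says only that the letters are not in the window.

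*Klk14* encodes a trypsin-like protease of skin and other epithelia that can activate further kallikreins. Its FPKM was 1.67, 10.99 and 22.68 in the control tumors and 13.24, 44.49 and 18.98 in the test tumors. The groups overlapped, with control replicate 3 above test replicates 1 and 3, and the lowest value was in control replicate 1. Means were 25.57 ± 16.63 FPKM in test and 11.78 ± 10.53 FPKM in control tumors (SD, n = 3 each). The log2 fold change was 1.19 (standard error 0.83) with all tumors. It was 0.68 without control replicate 1, 1.14 without control replicate 2, 2.07 without control replicate 3 and 0.48 without test replicate 2. None of its 6 expected counts was a whole number within 0.005, as happens when reads are divided between genes. Of the 1222 windows of 50 bases in its transcript, 24.2% also occurred in transcripts of other genes on either strand, 106 genes in all. On the same strand 55 windows were shared, and whether counting used strand is not given in the sources used here. The level of *Klk14* is uncertain because of the shared windows. For *Klk10*, *Klk6*, *Klk5*, *Klk7*, *Klk9*, *Klk11* and *Klk13* no such window was shared, and the counts of every member except *Klk14* were whole in all 6 tumors.

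Which member was most abundant differed between the groups. Per length, *Klk14* was the highest member in 3 of 3 control tumors, with 65.0%, 73.8% and 97.5% of the summed FPKM of the 10 members in replicates 1, 2 and 3. In 3 of 3 test tumors *Klk10* was the highest instead, with 67.7%, 78.9% and 87.6% of the sum in replicates 1, 2 and 3. The ratio of *Klk10* to *Klk14* was 0.144, 0.160 and 0.0146 in the control and 2.45, 4.83 and 18.0 in the test tumors. These shares and ratios carry the uncertainty in the level of *Klk14*, and the rise of *Klk10* led to the choice of the family. *Klk6* was second to *Klk10* in test replicate 3, whereas *Klk14* was second in test replicates 1 and 2. Summed over the members, the family was at 2.57, 14.89 and 23.27 FPKM in the control tumors and at 47.85, 272 and 390 FPKM in the test tumors.

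**Figure D1:**
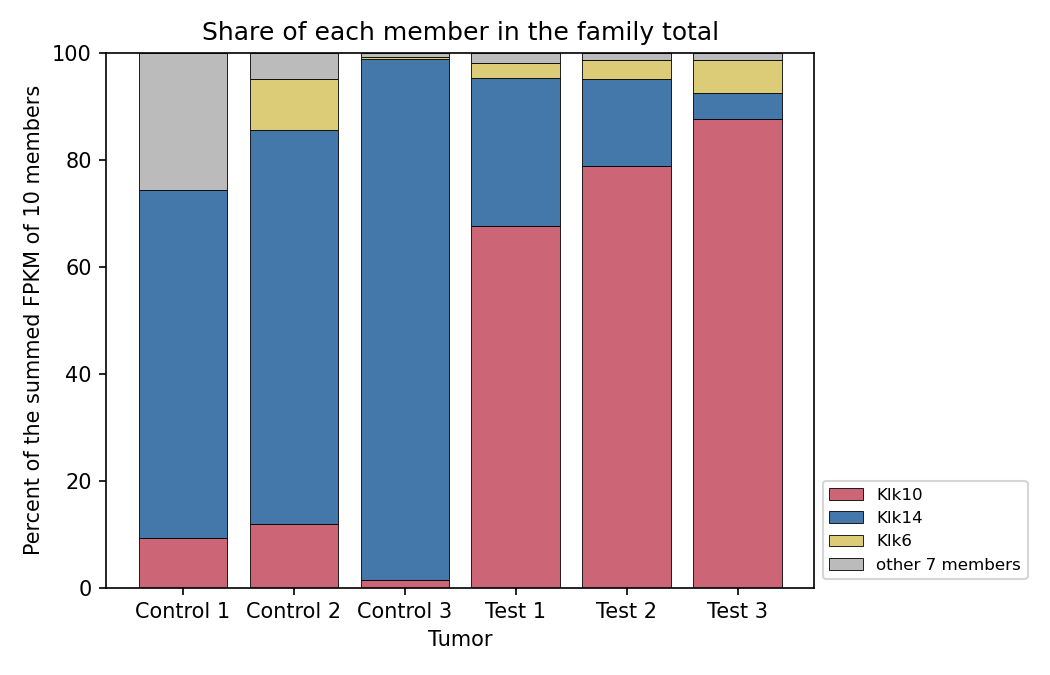
Share of the summed FPKM of the 10 members held by *Klk10*, *Klk14*, *Klk6* and the other 7 members in each tumor, in percent. *Klk10* took between 67.7% and 87.6% in the test tumors and between 1.42% and 11.8% in the control tumors. In the control tumors *Klk14*, whose level is uncertain, took the largest share.

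The remaining members of the skin cascade were near the limit of detection. *Klk5* (NCBI Gene 68668, 43834157 to 43851181), which starts the cascade by activating itself and then *Klk7* and *Klk14*, had 7 counts in test replicate 3 and 0 in each other tumor. For *Klk7* (NCBI Gene 23993, 43811294 to 43816387), the chymotrypsin-like enzyme of the cascade, test replicate 3 gave 19 counts, control replicate 2 gave 1 and the other tumors 0. *Klk13* (NCBI Gene 626834, 43712567 to 43727864) had 9 counts in test replicate 3 and 0 elsewhere. For these genes a single tumor thus held all or nearly all of the reads, and no difference between the groups can be read from it. *Klk8* (NCBI Gene 259277, 43797532 to 43803826), or neuropsin, a protease of brain and skin, had 8, 2 and 0 counts in the control tumors and 3, 8 and 19 counts in the test tumors. The groups overlapped, and 26.2% of the 50-base windows of *Klk8* were shared with the opposite strand of the long noncoding RNA gene *2310002F09Rik*, which had 1 count in test replicate 2 and 0 in each other tumor.

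Of the 2 neighbors that flank *Klk10*, *Klk11* ended 1790 bases before its start and *Klk9* began 6214 bases after its end. *Klk11* (NCBI Gene 56538, 43774617 to 43779263) had 0, 4 and 1 counts in the control tumors and 4, 31 and 9 counts in the test tumors. Scaled for depth, every test tumor was above every control tumor, but test replicate 1 and control replicate 2 had the same count and differed by less than counting error. Mean *Klk11* levels were 1.32 ± 1.32 FPKM in test and 0.143 ± 0.176 FPKM in control tumors (SD, n = 3 each), with test replicate 2 the highest at 2.83 FPKM. *Klk9* (NCBI Gene 101533, 43791625 to 43796758) had 0, 2 and 1 counts in the control and 3, 0 and 6 counts in the test tumors, so that its groups overlapped at or near the floor. *Klk1* (NCBI Gene 16612, 44225360 to 44229622), the tissue kallikrein that releases kinins from kininogen, had 1 count in test replicate 2 and 0 in each other tumor. A difference in *Klk1* was not detectable at this depth, and 28.4% of its 50-base windows were shared with *Klk1b* genes.

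Ordered by FPKM, the members of test replicate 3 ran from *Klk10* and *Klk6* through *Klk14* to *Klk8* at 1.54, *Klk7* at 1.16, *Klk13* at 0.94, *Klk11* at 0.75, *Klk5* at 0.60 and *Klk9* at 0.43 FPKM, with *Klk1* at 0. The members from *Klk8* to *Klk9* in this order had between 6 and 19 counts each, and neighbors among them do not differ beyond counting error. Test replicate 3 had the broadest expression of the family, with 9 of the 10 members above 3 counts, against 4 and 5 members in the other test tumors and 2, 4 and 2 members in the control tumors. Mean log2(CPM + 0.5), where CPM is the count scaled for library size, was higher in test than in control tumors for 10 of 10 members, as it was for 7 of 10 without test replicate 3 and 9 of 10 without test replicate 2. Over all tested genes 51.5% were higher in test tumors by log2 fold change. The counts of members follow from the contrast that led to the choice of the family, several of them rest on 1 tumor, such as that of *Klk1* with its 1 count, and nothing is read from them. Groups without overlap and with higher values in test tumors were seen for 1 of the 3 tested members, *Klk10*, beside 6.12% of all tested genes, 839 of 13706.

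**Figure D2:**
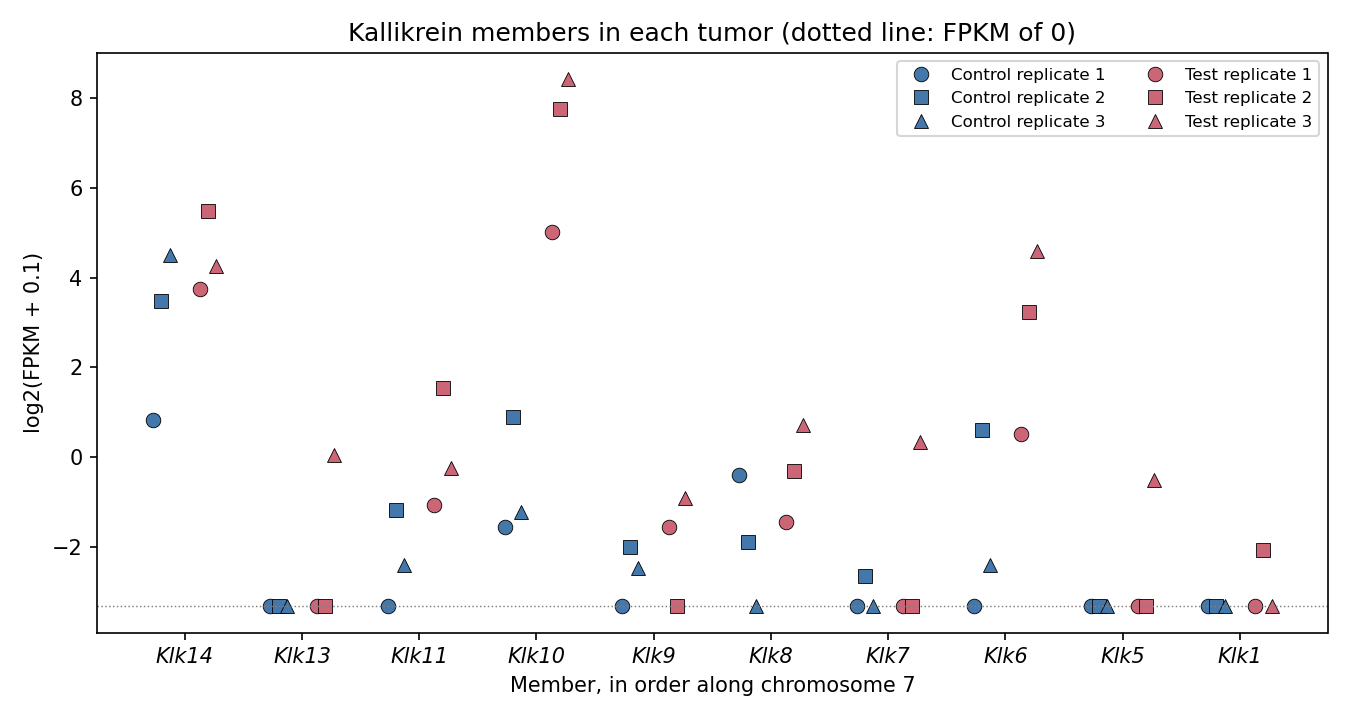
Level of each of the 10 members in each tumor as log2(FPKM + 0.1), with members in their order along the chromosome, blue for control and red for test tumors, and a symbol for each replicate number. *Klk10* separates the groups, *Klk14* and *Klk6* overlap, and *Klk5* and *Klk13* have an FPKM above 0, the dotted line, only in test replicate 3.

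Of 16 other kallikrein genes, 5 were listed with any read. *Klk1b8*, a glandular kallikrein of the mouse submandibular gland, had 10 counts in test replicate 1, 1 count in test replicate 2 and 0 in the others. The remaining 4, *Klk1b1*, *Klk1b4*, *Klk1b21* and *Klk1b27*, had at most 3 counts in any tumor. *Klk4*, *Klk12* and *Klk15*, which lie within the same cluster, were at 0 in all 6 tumors. In the test tumors the expression of the family was thus spread unevenly along the cluster. There *Klk10* was at 32.4 FPKM or more, between *Klk11* and *Klk9* at no more than 2.83 and 0.43 FPKM. In the control tumors *Klk10* itself was at no more than 1.76 FPKM.

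Genes beyond the cluster on either side were compared with *Klk10* by their position. Next to *Klk14* lies *Ctu1*, which takes part in the modification of transfer RNA, at 1.74, 5.10 and 3.50 FPKM in the control and 3.56, 4.77 and 4.26 FPKM in the test tumors. Its groups overlapped, with a log2 fold change of 0.32 (standard error 0.43; 0.69 without control replicate 2). On the side of *Klk1* the nearest listed gene is the noncoding *1700028J19Rik*, which had between 1 and 5 counts in each tumor. Within 700 kb of *Klk10* there were 13 tested genes outside the family, with log2 fold changes from -0.90 to 1.20 and a median of 0.02, which is also the median of all tested genes. Without control replicate 2 they ran from -1.21 to 1.41 with a median of -0.03, and the median of all tested genes was 0.04. By edgeR's quasi-likelihood test 0 of these 13 genes passed an adjusted p of 0.05, and 1 had an unadjusted p under 0.05. That gene, *2410002F23Rik*, was singled out after its values were seen, and it was at 42.15, 42.94 and 24.75 FPKM in test and 14.07, 20.92 and 13.21 FPKM in the control tumors.

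**Figure D3:**
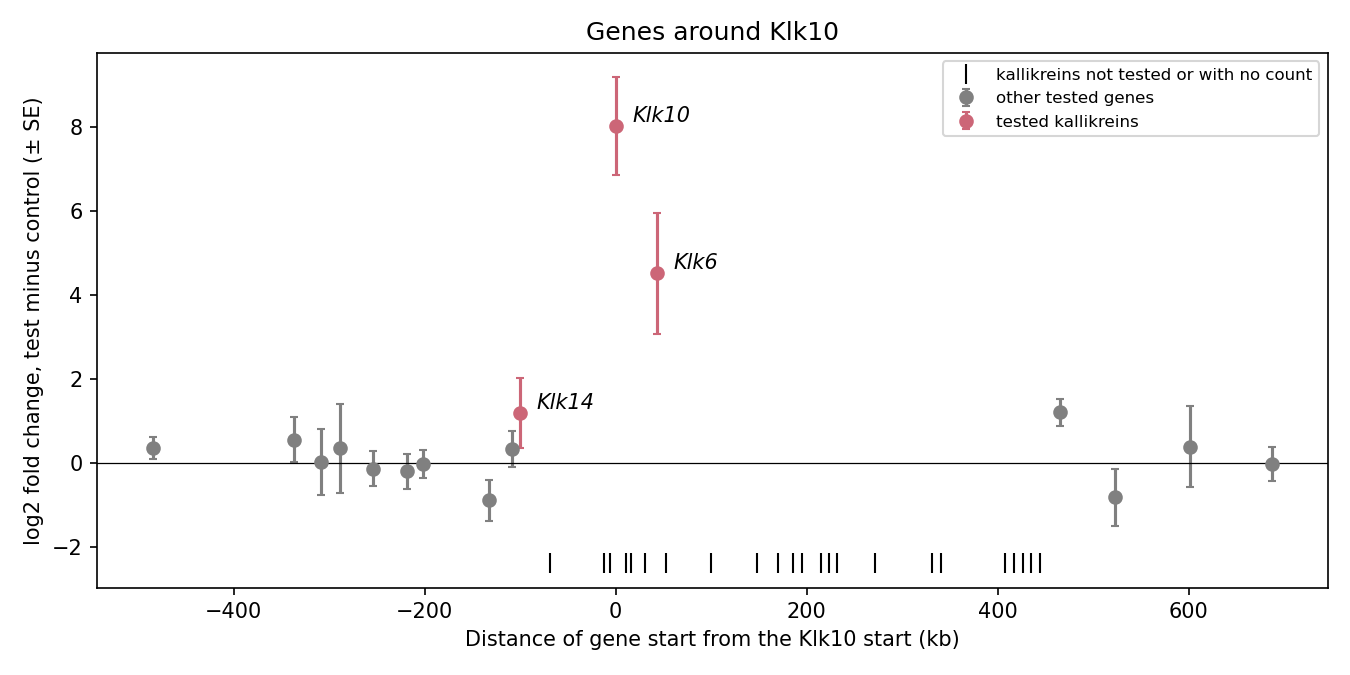
Log2 fold change (test minus control, with its standard error) of tested genes by the distance of their start from that of *Klk10* in kb, with kallikreins that were not tested or had no count as ticks. *Klk10* at 8.02, which led to the choice of the family, and *Klk6* at 4.52 stand above neighbors that lie between -0.90 and 1.20. *Klk14* at 1.19 lies within that range.

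Over all genes, 0 of the 13706 tested had an adjusted p of 0.05 or less in edgeR's quasi-likelihood test (0.0%). Before adjustment, p was under 0.05 for 1153 genes, with 432 at higher and 721 at lower levels in test tumors. DESeq2 called 343 genes at the same false discovery rate and limma on log2(FPKM + 1) called 0. Without control replicate 2, edgeR called 182 genes. Lists of related genes are described by their counts and medians, and with all 6 tumors none of their genes passed in edgeR or in limma.

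Inhibitors hold active kallikreins in check. Of 14 such genes 11 were listed and 7 tested, with 4 at higher and 3 at lower levels in test tumors, a median log2 fold change of 0.47 (0.27 without control replicate 2), and 5 had an unadjusted p under 0.05. *Spint2*, a membrane-bound inhibitor of serine proteases, was the most abundant, at 132, 350 and 230 FPKM in the control tumors and 438, 446 and 380 FPKM in the test tumors. Every test tumor was above every control tumor for *Spint2*, and the log2 fold change was 0.86 ± 0.36 (standard error; adjusted p = 0.570 in edgeR). The opposite order was seen for *Slpi*, a secreted leukocyte protease inhibitor that also blocks Klk7, at 559, 43.0 and 139.5 FPKM in the control and 6.02, 37.2 and 3.03 FPKM in the test tumors. Its log2 fold change was -4.02 (standard error 1.26, adjusted p = 0.462 in edgeR), and control replicate 1 was far above the rest. *Serpinb6a*, an intracellular serpin, was at 32.5, 48.8 and 39.7 FPKM in the control and 70.5, 107.7 and 55.0 FPKM in the test tumors, again without overlap. DESeq2 called 1 gene of this list.

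Of 11 proteases able to activate kallikrein precursors 8 had more than 3 counts in every tumor, *Plg* and *Tmprss11d* had at most 4 counts in any tumor and *Mep1b* was at 0. These 8 genes were tested, with 6 at higher and 2 at lower levels in test tumors, a median log2 fold change of 0.33 (1.01 without control replicate 2), and 2 had an unadjusted p under 0.05. *St14*, or matriptase, which activates kallikrein precursors in epidermis, was at 36.9, 86.7 and 52.8 FPKM in the control and 107, 60.0 and 80.4 FPKM in the test tumors, and the groups overlapped. *Prss8*, or prostasin, a membrane-anchored partner of matriptase, was at 12.6, 41.2 and 29.4 FPKM in the control and 65.3, 52.9 and 36.8 FPKM in the test tumors, with overlap. *Tmprss2*, a transmembrane serine protease, had the highest log2 fold change of the list, 1.37 (standard error 0.45, adjusted p = 0.475 in edgeR). It was at 3.32, 8.0 and 3.96 FPKM in the control and 20.0, 11.3 and 7.78 FPKM in the test tumors, so that test replicate 3 lay just under control replicate 2 in FPKM, although the groups did not overlap in scaled counts. The lowest value of the list was that of *Plau*, the urokinase, at -0.65 (standard error 0.54; -1.01 without control replicate 2), which is close to its error. *Furin*, a proprotein convertase, was at 53.2, 38.0 and 52.6 FPKM in the control and 76.5, 32.3 and 31.6 FPKM in the test tumors. DESeq2 called 1 gene of this list.

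Receptors and substrates through which kallikreins act formed a list of 24 genes, of which 12 were tested, 6 higher and 6 lower, with a median log2 fold change of -0.04 (-0.24 without control replicate 2), and 3 had an unadjusted p under 0.05. *App*, the amyloid precursor protein, which Klk6 can cut, was the most abundant, at 336, 239 and 407 FPKM in the control and 327, 145 and 325 FPKM in the test tumors, with overlap. *Col4a1*, a chain of the basement membrane collagen, had the lowest value of the list, -2.42 (log2, standard error 0.78, adjusted p = 0.473 in edgeR). It was at 471, 44.8 and 424 FPKM in the control and 51.6, 57.9 and 68.5 FPKM in the test tumors, so that control replicate 2 was lower than every test tumor, and its log2 fold change was -2.93 without that tumor. *L1cam*, an adhesion molecule, had the highest, 1.76 (log2, standard error 0.50, adjusted p = 0.439 in edgeR), at 2.35, 1.55 and 2.89 FPKM in the control and 11.2, 2.87 and 9.21 FPKM in the test tumors. *Igfbp3*, which carries insulin-like growth factors, overlapped between the groups, with a log2 fold change of 0.31 (standard error 0.40; 0.03 without control replicate 2). The adhesion proteins cut in the skin cascade, *Cdsn*, *Dsg1a* and *Dsc1*, were at 1.18, 0.20 and 0.31 FPKM in test replicate 3, their highest tumor, and *Dsg1b* was at 0.09 FPKM in control replicate 3, 0.10 FPKM in test replicate 3 and 0 elsewhere. *Dsg1c* went the other way, at 0.48 FPKM in control replicate 2 and 0 in test replicate 3. The bradykinin receptors *Bdkrb1* and *Bdkrb2* were at or below 0.26 FPKM in each tumor, and these 7 genes were named after their values were seen. DESeq2 called 3 genes of this list, and edgeR called 1 without control replicate 2.

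Several kallikreins are known as targets of steroid hormones. Of 10 steroid and nuclear receptors all were tested, with 2 at higher and 8 at lower levels in test tumors, a median log2 fold change of -0.44 (-0.53 without control replicate 2), and 2 had an unadjusted p under 0.05, both lower. *Vdr*, the vitamin D receptor, was the most abundant, at 30.1, 47.3 and 30.5 FPKM in the control and 28.6, 17.1 and 32.3 FPKM in the test tumors. *Rarg*, a retinoic acid receptor, was at 35.6, 32.1 and 30.6 FPKM in the control and 21.2, 21.7 and 20.5 FPKM in the test tumors, without overlap. *Rxra*, its partner, overlapped, with a log2 fold change of -0.24 (standard error 0.36; -0.38 without control replicate 2). *Nr3c2*, the mineralocorticoid receptor, had the lowest log2 fold change, -1.69 (standard error 0.43, adjusted p = 0.394 in edgeR), at 4.28, 3.56 and 2.70 FPKM in the control and 1.62, 0.70 and 0.97 FPKM in the test tumors. *Pgr*, the progesterone receptor, had the highest, 0.86 (log2, standard error 1.15; 0.57 without control replicate 2), which is within its error. *Nr3c1*, the glucocorticoid receptor, which reads the half-site seen in the *Klk10* promoter, was between 11.9 and 19.2 FPKM over the 6 tumors, and it was named for that reason after its values were seen. DESeq2 called 1 gene of this list.

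Of 16 epithelial transcription factors 11 were at higher and 5 at lower levels in test tumors, with a median log2 fold change of 0.26 (0.67 without control replicate 2), and 1 had an unadjusted p under 0.05. *Elf5*, a factor of luminal progenitors and of the milk-producing lineage, was at 67.3, 242 and 131 FPKM in the control and 279.5, 282.5 and 150.3 FPKM in the test tumors, and the groups overlapped. *Ehf*, a related factor of epithelia, also overlapped, with control replicate 2 at 228 FPKM above every test tumor, and its log2 fold change was 0.75 with and 1.80 without that tumor. *Cebpb*, a regulator of mammary differentiation, differed little, with a log2 fold change of -0.12 (standard error 0.27; -0.22 without control replicate 2). The highest log2 fold change was that of *Ovol2*, 1.00 (standard error 0.48), and the lowest that of *Trp63*, a factor of basal cells, -3.15 (log2, standard error 1.09), in which control replicate 1 stood at 99.3 FPKM and the other tumors between 1.61 and 15.8 FPKM. DESeq2 called 1 gene of this list.

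The 5 genes outside the family nearest to *Klk10* in their profile over the 6 tumors were *Gpx2*, *Rbp7*, *Dmkn*, *Olah* and *Ltf*, measured as the root mean square difference of log2(CPM + 0.5) centered on the 6 tumors. The differences were 1.84, 2.22, 2.23, 2.27 and 2.28 in that order, against 1.87 for *Klk6* and a median of 3.78 over all tested genes. A gene is near *Klk10* by this measure when its groups differ widely, so the contrast that chose the family also chose these genes, and no test is given. *Gpx2*, a glutathione peroxidase of epithelia, was at 0, 0.53 and 1.15 FPKM in the control and 26.3, 20.4 and 19.0 FPKM in the test tumors. *Rbp7*, a retinol binding protein, was at 19.4, 9.27 and 12.6 FPKM in the control and 77.7, 195 and 154 FPKM in the test tumors. *Dmkn*, or dermokine, a secreted protein of the upper epidermis, was at 2.41, 4.86 and 0.35 FPKM in the control and 93.1, 25.4 and 41.7 FPKM in the test tumors. *Olah*, a thioesterase that ends the synthesis of medium-chain fatty acids of milk, was at 0, 0.52 and 0 FPKM in the control and 2.05, 9.67 and 2.03 FPKM in the test tumors. *Ltf*, the milk protein lactotransferrin, was at 178, 632 and 107 FPKM in the control and 1295, 2401 and 1744 FPKM in the test tumors. For each of the 5 genes every test tumor was above every control tumor, but none had the spread of *Klk10* within the test group.

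**Figure D4:**
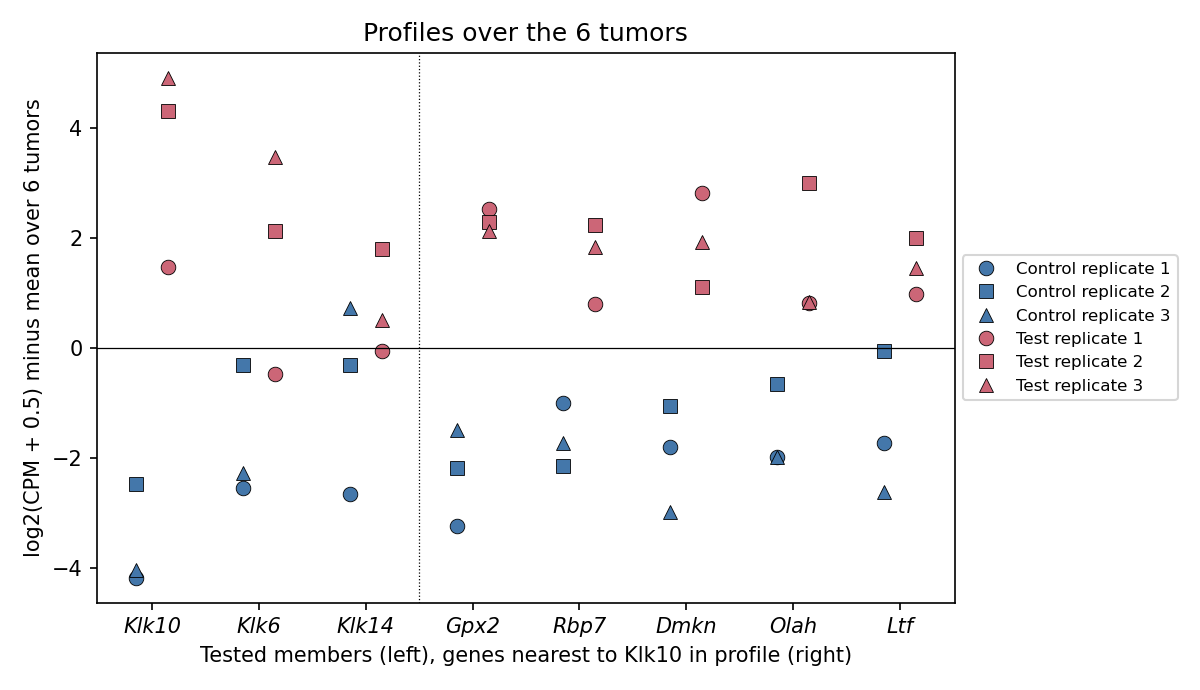
Level of the 3 tested members and of the 5 genes nearest to *Klk10* in profile, as log2(CPM + 0.5) minus the mean of the gene over the 6 tumors, with blue control and red test tumors and a symbol for each replicate number. The groups are apart for *Klk10* and the 5 genes on the right and overlap for *Klk6* and *Klk14*.

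Markers of the cell types that the tissue could hold were set beside the family. Luminal epithelial markers were higher in test tumors for 14 of 14 genes, with a median log2 fold change of 0.94 (1.49 without control replicate 2) and 5 genes at an unadjusted p under 0.05, against 51.5% of all tested genes that were higher. Their summed FPKM was 6633, 8017 and 6938 in the control tumors and 17770, 14870 and 17870 in the test tumors, without overlap of the sums. Gene by gene, in scaled counts, only 6 of the 14 had every test tumor above every control tumor, beside 6.12% of all tested genes. The most abundant gene was *Csn3*, the milk protein kappa-casein, at 4088, 1585 and 4134 FPKM in the control and 10248, 6286 and 9826 FPKM in the test tumors. *Krt19*, a luminal keratin, had the highest log2 fold change, 1.82 (standard error 0.42, adjusted p = 0.394 in edgeR), and *Muc1*, a luminal mucin, the lowest, 0.22 (standard error 0.36; 0.55 without control replicate 2). *Wfdc18*, a secreted protein of mammary epithelium, was at 1119, 3256 and 1394 FPKM in the control and 3546, 4799 and 4125 FPKM in the test tumors. The part of luminal cells in the level of *Klk10* was not tested. DESeq2 called 1 gene of this list.

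Keratinocyte markers bear on the family because skin expresses most of its members. Of 22 cornified keratinocyte markers 3, *Krt2*, *Flg* and *Flg2*, were at 0 in all tumors, and 16 were above 3 counts in test replicate 3, against 8 and 6 in the other test tumors and 8, 8 and 9 in the control tumors. Their summed FPKM was 28.5, 102.2 and 44.7 in the control tumors and 126.2, 67.4 and 99.0 in the test tumors, and the groups overlapped. *Dmkn* had the highest mean and the highest log2 fold change of this list, 4.16 (standard error 0.73; 4.87 without control replicate 2), and *Calml3*, a calmodulin-like protein of epithelia, the lowest, -1.69 (standard error 0.55). *Asprv1*, a protease of the granular layer, was at 2.04, 23.7 and 3.00 FPKM in the control and 4.57, 11.9 and 16.0 FPKM in the test tumors. The same tumor, test replicate 3, held the reads of *Klk5*, *Klk7* and *Klk13*, and the part of cornified cells in these counts was not tested. Of the 19 cornified markers with a read, 10 were highest in that tumor, 6 in a control tumor and 3 in test replicate 1, and *Calml3* was lowest in it. Of the 5 tested cornified markers 4 were higher, with a median of 0.81 (2.11 without control replicate 2), 2 had an unadjusted p under 0.05, and DESeq2 called 1, as did edgeR without control replicate 2.

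The K14 promoter that drives the TSLP transgene belongs to *Krt14*, and this keratin was at 8.72, 35.5 and 62.3 FPKM in the control and 27.1, 67.4 and 69.8 FPKM in the test tumors, with overlap. Of 19 squamous and stress keratinocyte markers, *Sprr3* at 0 among them, 10 were tested, 4 higher and 6 lower, with a median log2 fold change of -0.11 (0.41 without control replicate 2) and 0 at an unadjusted p under 0.05. Their summed FPKM, led by *Krt5*, was 62.3, 133.5 and 297 in the control and 145, 152 and 222 in the test tumors, so that the test tumors stood in the same order as for *Klk10* and control replicate 3 was above them all. More than 3 counts were reached by 15 of these genes in test replicate 3, against 9 to 11 in the other tumors, and their part in the level of *Klk10* was not tested. Hair follicle markers, led by *Padi3*, summed to 0.35, 1.87 and 9.02 FPKM in the control and 2.73, 2.24 and 4.89 FPKM in the test tumors, highest in control replicate 3, with *Krt34*, *Krt35* and *Krt85* at 0. Of these 12 genes 3 were tested, 1 higher and 2 lower, with a median of -0.35 (0.24 without control replicate 2) and 1 at an unadjusted p under 0.05. *Tchh*, or trichohyalin, was highest in test replicate 3, at 2.69 FPKM, whereas *Padi3* and *Krt71* were highest in control replicate 3, at 3.99 and 2.0 FPKM. DESeq2 called 0 genes of either list.

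Salivary gland markers were set beside *Klk1b8*, which was read almost only in test replicate 1. *Lpo*, or lactoperoxidase, was at 13.0 FPKM in that tumor and at most 2.74 FPKM in the others. Of 15 salivary genes 8 were tested, 4 higher and 4 lower, with a median of 0.05 (-0.19 without control replicate 2) and 3 at an unadjusted p under 0.05, and DESeq2 called 1 and edgeR without control replicate 2 called 2. Their summed FPKM, led by the water channel *Aqp5*, was 467, 184 and 776 in the control and 286, 255 and 308 in the test tumors, and *Cst10* and *Muc19* were at 0. *Smr3a*, which encodes a secreted peptide, was at 105, 3.52 and 289 FPKM in the control and 2.43, 0.73 and 0.50 FPKM in the test tumors, so that every control tumor was above every test tumor. Their part in the reads of *Klk1b8* was not tested.

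Among the test tumors, the sums of muscle and fat markers had an order opposite to that of *Klk10*. Skeletal muscle markers, led by *Acta1*, were higher for 10 of 10 genes, with a median of 2.96 (6.08 without control replicate 2), and summed to 5.0, 116.9 and 3.83 FPKM in the control and 612, 126 and 68.2 FPKM in the test tumors. Adipocyte markers, led by *Fabp4*, were higher for 4 of 4 tested genes of 8, with a median of 3.42 (3.98 without control replicate 2), and summed to 38.0, 24.0 and 33.3 FPKM in the control and 510, 136 and 24.7 FPKM in the test tumors. Test replicate 3 had the lowest sums of its group for both lists and the highest *Klk10*, and test replicate 1 the highest sums and the lowest *Klk10*. Not every gene kept this order of 3 tumors, as *Atp2a1* was at 115, 4.53 and 5.45 FPKM in the test tumors. In the control group the muscle sum and *Klk10* were both highest in replicate 2, where the adipocyte sum was lowest. No gene of either list was at 0 in all tumors. Unadjusted p was under 0.05 for 1 muscle and 3 adipocyte genes, and edgeR without control replicate 2 called 1 and 0. DESeq2 called 0 muscle genes and 2 adipocyte genes, *Cidec* and *Retn*, which are not among the 4 that passed edgeR's filter. Their part in the level of *Klk10* was not tested.

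The sums of the remaining cell type lists overlapped between the groups, and their part in the level of *Klk10* was not tested. Myoepithelial markers, led by *Acta2*, were lower for 7 of 8 genes, with a median of -0.95 (-1.41 without control replicate 2), 1 at an unadjusted p under 0.05 and 1 called by DESeq2, and their highest sum, 1241 FPKM, was in control replicate 3. Fibroblast markers, led by *Col1a1*, were higher for 6 of 8 genes, with a median of 0.45 (0.76 without control replicate 2), 1 at an unadjusted p under 0.05 and 1 called by DESeq2. Endothelial markers, led by *Plvap*, were higher for 5 of 8 genes, with a median of 0.21 (-0.06 without control replicate 2), and 0 had an unadjusted p under 0.05 or were called by DESeq2. Myeloid markers, led by *Lyz2*, were lower for 9 of 9 genes, with a median of -0.52 (-0.74 without control replicate 2), 1 at an unadjusted p under 0.05 and 0 called by DESeq2. T cell markers were higher for 3 of 4 tested genes of 8, with a median of 0.08 (-0.08 without control replicate 2), and 0 had an unadjusted p under 0.05 or were called by DESeq2. The T cell sum was led by *Gata3*, which luminal cells also express, while *Cd3d* and *Cd4* were between 0.35 and 1.81 FPKM in each tumor.

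**Figure D5:**
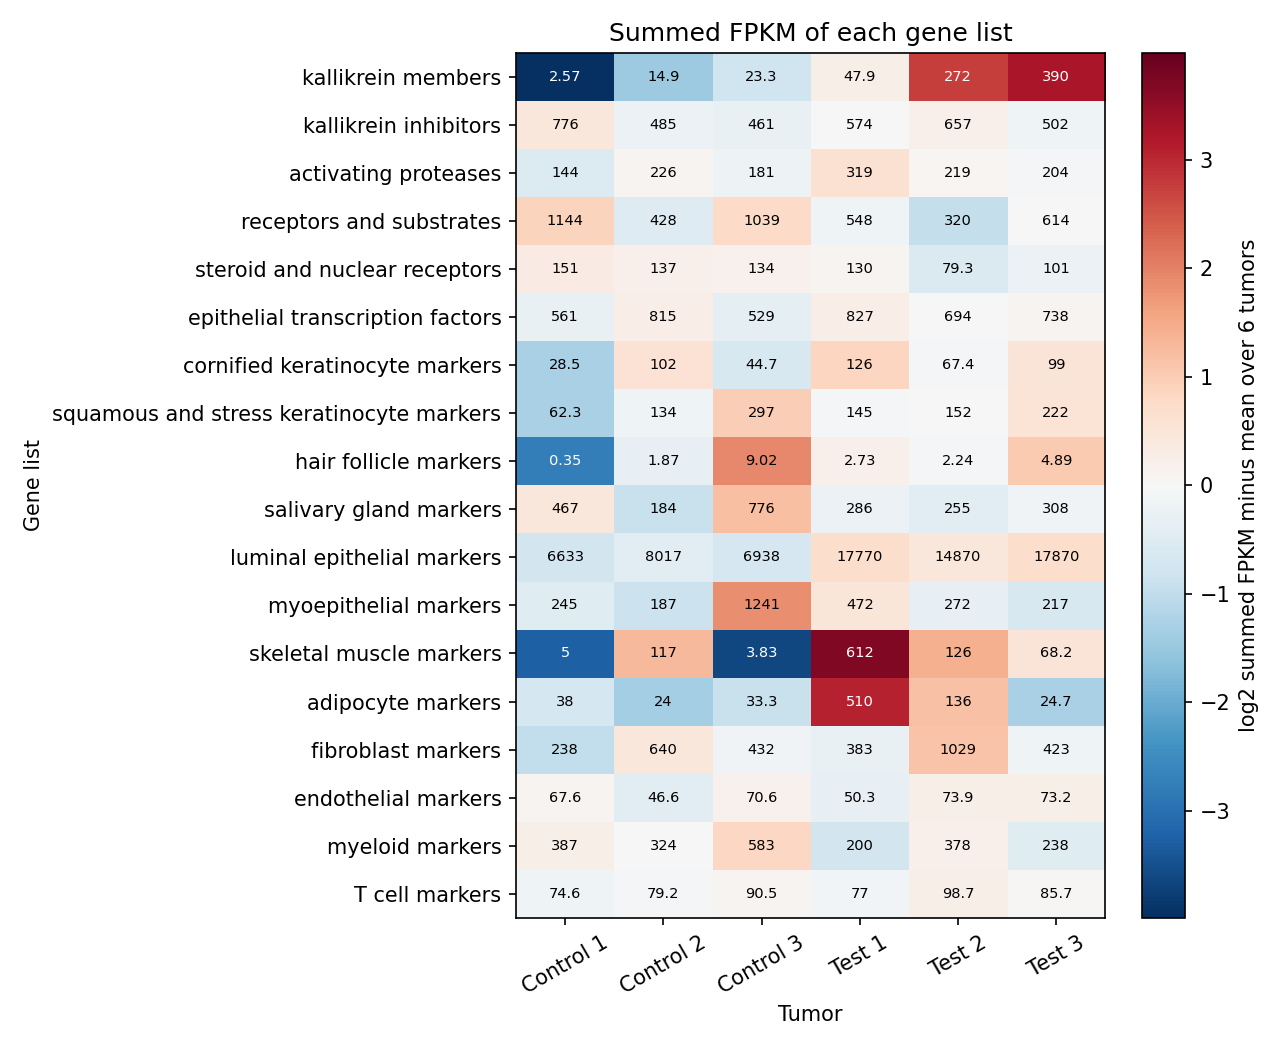
Summed FPKM of the kallikrein members and of each gene list in each tumor, printed in the cells and colored by its log2 difference from the mean over the 6 tumors. The members run from 2.57 in control replicate 1 to 390 in test replicate 3, and the luminal sums lie between 6633 and 8017 in control and between 14870 and 17870 in test tumors.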

How the data were processed

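Breast tumor RNA was sequenced for 3 test and 3 control tumors, grouped by their labels. The paper states alignment to mm10 with Bowtie, and the submitters' processing notes also name RSEM. The expected counts that the authors deposited are not normalized. The FPKM that the authors deposited is normalized for gene length and depth. The annotation release is not given in the sources used here. Genes without reads were set to 0. Of 18460 genes, 18400 matched RefSeq by NCBI Gene identifier. The members and lists were chosen with earlier results of these data known.

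Expected counts were rounded and fitted with edgeR 4.0.16 under R 4.3.3: filterByExpr, TMM scaling, the quasi-likelihood test of test against control tumors without covariates, and Benjamini-Hochberg adjustment over all tested genes. The standard error is the size of the log2 fold change divided by the square root of F. The methods were tested on simulated data. The alternatives were RLE scaling, DESeq2 1.42.0, no filter, at least 10 counts in every tumor, limma 3.58.1 with trend on log2(FPKM + 1) or log2(FPKM + 0.1) at a mean FPKM of at least 0.1 or without a filter, the replicate number as a block, and each tumor left out.

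Genes named were drawn from the members, other kallikreins with at least 10 counts in a tumor, in each list the 3 highest by mean FPKM and the highest and lowest log2 fold change among tested genes, the nearest listed genes beside the cluster, and the 5 genes nearest to *Klk10* in profile. Other genes named, the 5 motifs, the distance of 700 kb, the 50-base windows and the medians of lists without control replicate 2 were chosen after the data were seen. Promoters are from RefSeq (GRCm38.p6). Shared 50-base windows were counted in GENCODE vM21 transcripts.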

Additional observations from a re-analysis of the deposited data

How the results depend on the processing

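The log2 fold change of *Klk10* was positive under all 13 alternatives that gave a value, and it could not be computed with at least 10 counts in every tumor, a filter that removes *Klk10* and *Klk6*. It was 6.35 with limma on log2(FPKM + 1), with or without the filter on FPKM, where the pseudocount exceeds most control values, and it ranged from 7.39 to 9.38 when a tumor was left out. *Klk6* ranged from 2.61 to 7.79 and *Klk14* from 0.48 to 2.07 over all alternatives, positive in each. DESeq2 called 343 genes at a false discovery rate of 0.05 and 13 genes over the lists outside the members, where edgeR called 0 of each. Leaving out a tumor gave between 0 and 182 genes, and between 0 and 5 genes of the lists, the higher values without control replicate 2, and the cause was not tested. The members higher in test tumors were between 7 and 10 when a tumor was left out. Filters, the choice of test and the block touch this count at most through scaling and say nothing of its stability.

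Replicate numbers are shared between the groups, but deviations of same-numbered tumors had correlations of -0.025, 0.121 and -0.137, and not every tumor correlated best with its own number. With the replicate block the log2 fold change of *Klk10* was 7.96, and edgeR called 0 genes and 0 genes of the lists. The depth limits *Klk1*, *Klk5*, *Klk7*, *Klk9* and *Klk13*, which were at or under 3 counts in at least 5 of 6 tumors.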
